A study of Drosophila melanogaster with 3 samples.

Results

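Hr78-GFP peaks on the left arm of chromosome 2 of Drosophila melanogaster were taken as all entries of the deposited peak list whose sequence name was 2L, which left out the separate heterochromatic sequence 2LHet. They numbered 791 of 4851 peaks, or 16.3% of the list. The list came from chromatin immunoprecipitation followed by sequencing (ChIP-seq) of wandering larvae of the last instar, the stage just before the larva becomes a pupa. The series held 2 libraries precipitated with the polyclonal rabbit antibody ab290 against green fluorescent protein (GFP) and 1 library of input DNA. Each of the 3 was labelled with strain Hr78-GFP, genotype PBac{y[+]-attP-3B}VK00037, larval stage L3 and unknown sex, with the Hr78 genomic coding region as transgene, while the culture protocol names y; bw cn sp flies. The label does not say whether the endogenous Hr78 gene was intact or whether both replicates came from separate cultures. 1 list served the whole series, so there was no value per library, no spread between replicates and no read depth behind any value below, and differences are described without a test.

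Hr78 is an orphan nuclear receptor, a transcription factor with a zinc-finger DNA-binding domain and a ligand-binding domain whose ligand is not established. It belongs to the family of the vertebrate testicular receptors and is required in larvae for normal growth and for progress through the moults and metamorphosis that the steroid hormone ecdysone controls. Nuclear receptors of this kind recognise repeats of a short hexamer in DNA and recruit cofactors that activate or repress nearby genes. No sequence is printed here, since no genome of the build of the peaks was at hand.

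Along 2L, peaks were common on the side of the telomere and scarce in a stretch toward the centromere. In the last of 5 equal sections they were back near the density of the whole arm. The density was 34.4 peaks per Mb over the 22.97 Mb up to the last peak, against 46.3 on 2R, 40.4 on 3L, 42.0 on 3R and 30.8 on X. The first peak lay at chr2L:16390-17107 with a score of 32.68, and the last at chr2L:22967625-22968897 with a score of 55.05. These and all other positions are in FlyBase release 5. The gene table used for names, which is of RefSeq release 6, put the first peak over l(2)gl, the tumour suppressor gene known for its place at the tip of 2L. It put cta and lt nearest to the last peak, and lt is a classical gene of the heterochromatin at the base of 2L.

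The arm was split into 5 sections of equal length, numbered from the telomere, and they held 206, 195, 156, 75 and 159 peaks. As densities these were 44.8, 42.4, 34.0, 16.3 and 34.6 peaks per Mb. Section 4 thus had the lowest density. In section 4 of the other 4 large arms, also counted from the telomere, the density was 29.5 to 57.7 peaks per Mb, so that 2L lay below all of them there. In the other sections 2L was inside the range of those arms. The first section had 1.30 times as many peaks as the last. Among the 1000 highest-scoring peaks of the list this ratio was 0.89, with 31 peaks in the first section and 35 in the last. Among the 2425 highest it was 1.25.

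**Figure D1:**
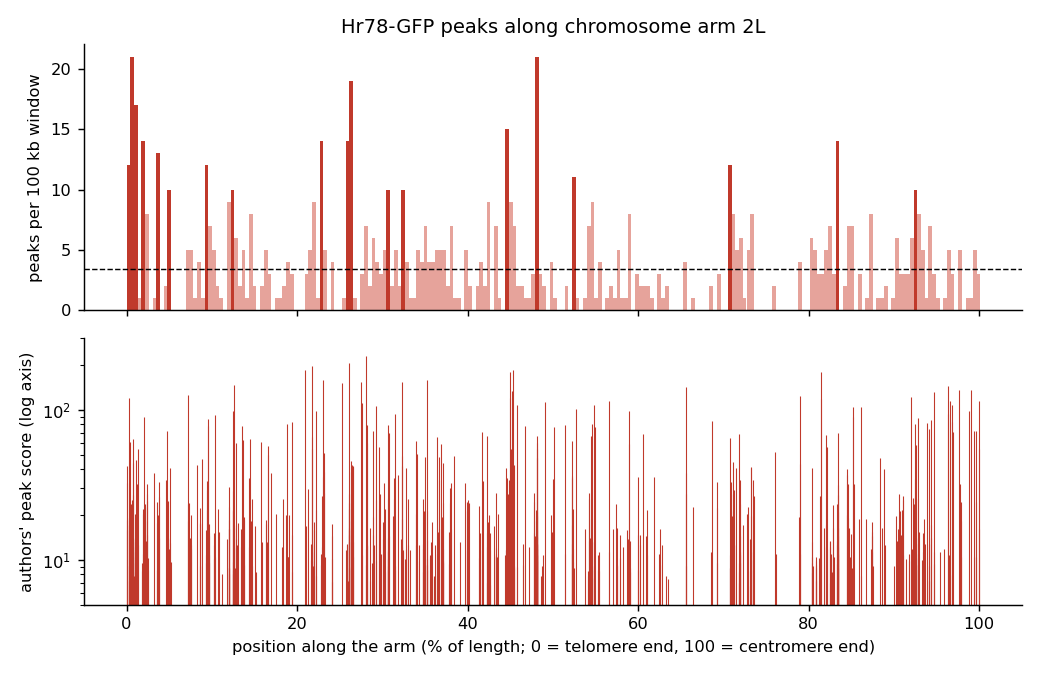
Peaks per 100 kb window (upper panel; dark bars hold 10 or more peaks, the dashed line is the mean of 3.44) and the authors' score of each of the 791 peaks (lower panel, log axis) against position along 2L as a percentage of its length from the telomere end. The 2 fullest windows hold 21 peaks each, and the emptiest part lies between about 63% and 80% of the arm.

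Bins of 1 Mb showed the same course in more detail. The first Mb held 87 peaks, more than any other bin, and its first 500 kb held 65 of them, or 130 per Mb. The 18th Mb, from 17000001 to 18000000, held 2 peaks. The 15th and 16th held 9 and 10. The 17th, between these sparse bins, held 45, so that the scarcity was interrupted by a group of peaks around 16.2 Mb to 16.9 Mb.

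The score, a number that the authors' peak caller gave to each peak with no definition in the sources used here, ranged from 6.53 to 230.13 on 2L. Its median was 14.03 and its quartiles were 10.4 and 26.1. The medians of 2R, 3L, 3R and X were 14.03, 13.71, 13.4 and 17.05. Of the 2L peaks, 160 (20.2%) had a score of at least 33.59, the value that bounds the 1000 highest of the list (1008 with ties). The weakest 2L peak inside this bound scored 33.59 and the strongest outside it 33.43. Scores were often shared: 571 of the 2L peaks had the score of at least one other 2L peak, and the most frequent score, 10.4, occurred 20 times.

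Score hardly changed along most of the arm, but the end next to the centromere differed. The median was 14.03, 13.71, 13.56, 13.71 and 14.68 in the 5 sections from the telomere, and Spearman's rho between position and score was 0.03 over the 791 peaks. The last bin, from 22000001 to 22968897, held 24 peaks with a median score of 63.3 and a range of 7.91 to 144.09, against a median of 13.83 for the other 767. Of these 24 peaks 13 (54.2%) were among the 1000 highest, against 147 (19.2%) of the rest. Their median width was 654.5 bp, against 405 bp in the rest. The range of the last bin lay within that of the rest, so weak peaks occurred there too. Without this bin the last section had a median score of 13.4. The bins were laid out from position 1, and no bound of the heterochromatin was used.

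**Figure D2:**
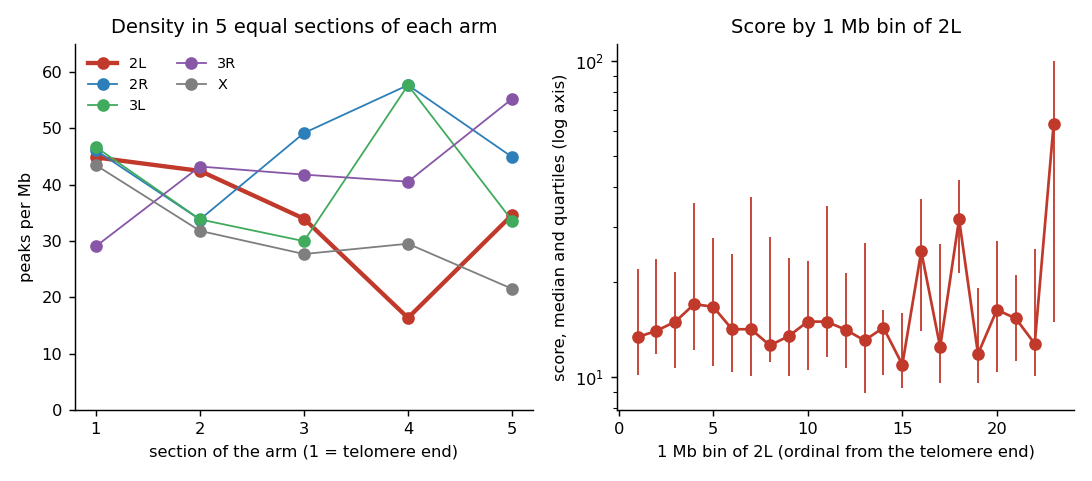
Left, peaks per Mb in each of 5 equal sections of 2L (thick line) and of the 4 other large arms, ordered from telomere to centromere; 2L is at 16.3 in section 4. Right, median score (points) and quartiles (vertical lines) per 1 Mb bin of 2L on a log axis; the last bin has a median of 63.3, and the 18th rests on 2 peaks.

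Peaks on 2L had a median width of 413 bp, with quartiles of 288.5 and 714 bp and extremes of 201 and 4880 bp. Together they covered 469 kb, or 2.04% of the arm. Widths of 1 kb or more were found for 104 peaks (13.1%), against 12.2% on 2R, 11.4% on 3L, 10.7% on 3R and 14.9% on X. Wider peaks scored higher, with a Spearman rho of 0.76 across the peaks, which share their libraries and are not independent. The median width of the 5 sections lay between 402 and 430 bp.

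Of the 10 highest-scoring peaks of 2L, 6 had their centre within 500 bp of an end of a protein-coding gene (6 of 11 with a tie in score), against 37.7% of all 2L peaks and 50.0% of those in the top 1000. For 4 of the 6 the ends of a pair of neighbouring genes were that close. The gene table carries no strand, so an end can be where transcription starts or where it stops. The strongest peak, at chr2L:6455134-6456792 with a score of 230.13, had its centre between retm and frj. The second, at chr2L:5985754-5987129 with 207.01, lay at an end of ifc, which encodes a desaturase of sphingolipid synthesis. The peak at chr2L:10422401-10423673, with 183.43, had its centre between pie and Wdfy2. That at chr2L:10339040-10339817, with 180.24, lay at ends of GATAd, a gene for a GATA-type transcription factor, and of SamDC, which encodes the S-adenosylmethionine decarboxylase of polyamine synthesis. The same score belonged to chr2L:18702672-18703667, at ends of CG10376 and CG10343. The tenth in rank, at chr2L:6323713-6324724 with 152.33, lay at an end of PDZ-GEF, which encodes an exchange factor for the small GTPase Rap1. The centre of the tied peak near muc was not at a gene end.

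The other 4 of these 10 peaks did not have their centre at a gene end, and they were wide. Whether a peak lay inside or outside a gene was judged by its centre alone. The peak at chr2L:4999410-5002522, 3113 bp with a score of 195.52, lay inside Rtnl1, which encodes a reticulon of the endoplasmic reticulum. That at chr2L:4810201-4812791, 2591 bp with 185.02, had its centre outside any protein-coding gene, nearest to CG15629. It was the first peak after a peak-free stretch of 346 kb. The peak at chr2L:5291803-5293894, 2092 bp with 158.41, lay inside vri, and that at chr2L:8082830-8085811, 2982 bp with 157.65, lay inside Bsg, the gene of the cell-surface protein Basigin. In the whole list the strongest 2L peak ranked 15th.

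The 5 widest peaks scored between 61.69 and 152.33, and none had its centre within 500 bp of a gene end. Peaks this wide can cover a gene end that lies farther than 500 bp from their centre. Inside and outside a gene again refer to the centre. The widest, 4880 bp at chr2L:2196099-2200978, scored 77.7 and had its centre outside protein-coding genes, nearest to COX7AL2. The group of 3 peaks that it began touched this gene. The next, 4483 bp at chr2L:478190-482672 with 89.38, lay inside ush, which encodes a zinc-finger partner of GATA factors. A peak of 3607 bp at chr2L:7424283-7427889 scored 152.33 and was nearest to muc, and one of 3555 bp at chr2L:11805773-11809327 scored 79.36 and lay inside crol, a zinc-finger gene first known as ecdysone-inducible. The fifth, 3116 bp at chr2L:12004745-12007860, scored 61.69 and was nearest to Rh5.

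Windows of 100 kb from position 1 showed how unevenly the peaks were spread. Of 230 windows, 61 (26.5%) held no peak and 39 held 1, and the median was 2. The share of empty windows was 16.5% on 2R, 19.9% on 3L, 22.9% on 3R and 24.7% on X. The 19 windows with 10 or more peaks held 259 peaks, or 32.7% of those on the arm. Of these dense windows 6 lay within the first 1.2 Mb.

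The 5 fullest windows lay near the tip, at 26.3% of the arm from the telomere and near its middle. Their median scores were between 12.16 and 14.15, against 14.03 for all peaks of the arm. The windows at chr2L:100001-200000 and chr2L:11000001-11100000 held 21 peaks each, with median scores of 12.16 and 14.15. Of those peaks 3 and 4 were among the 1000 highest, as were 20.2% of all 2L peaks. The window at chr2L:6000001-6100000 held 19 peaks with a median of 12.46, and 5 of them were among the 1000 highest. That at chr2L:200001-300000 held 17 with a median of 12.16, and 2 were among the highest. That at chr2L:10200001-10300000 held 15 with 12.16, and 3 were among the highest. Over the 169 windows with a peak, the number of peaks and their median score had a Spearman rho of -0.30. Windows with more peaks also held more genes. The median number of protein-coding genes was 17 in the dense windows, 16 in windows with 4 to 9 peaks, 10 with 1 to 3 and 5 with none, and rho was 0.55 over the 230 windows, which share 1 peak list.

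Neighbouring peak centres on 2L were a median of 6460 bp apart, with quartiles of 1417 and 24652 bp and a mean of 29053 bp. The medians of 2R, 3L and 3R were 5491, 5432 and 5758 bp, and that of X was 9292 bp. Neighbours within 1000 bp made up 134 of 790 pairs, or 17.0%. Peaks at most 500 bp apart formed 118 groups with 275 peaks, of which 88 were pairs, 24 had 3 peaks, 3 had 4 and 3 had 5.

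The group at chr2L:483476-488978 touched ush, and its 5 peaks scored 6.87, 22.49, 23.39, 10.4 and 18.11 in map order. The group at chr2L:11057899-11062729 touched Samuel, with scores of 47.65, 11.86, 19.57, 60.06 and 14.15. The group at chr2L:6084913-6089313 touched Kr-h1, which encodes a zinc-finger factor induced by juvenile hormone, with scores of 8.49, 19.57, 41.62, 42.11 and 10.4. In the Kr-h1 group the peaks of 41.62 and 42.11, which were next to each other, were above 33.59, and in the ush group no peak reached it.

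Crowded peaks scored lower than the others. On 2L, 89 peaks stood more than 20 kb from the next, and their scores had a median of 17.05, against 12.77 among the 402 that had a neighbour within 2000 bp. The 300 peaks in between had a median of 16.9. Among the 1000 highest were 29.2% of the lone peaks, 27.0% of those in between and 13.2% of the crowded ones, while the median widths were 378, 424.5 and 412.5 bp. The scores of neighbouring peaks were nearly unrelated, with a Spearman rho of 0.03 over 790 pairs.

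Peak-free stretches took up a large part of 2L. There were 61 stretches of 100 kb or more between neighbouring peaks, and they added up to 12.2 Mb, or 53.2% of the arm. The share was 40.9% on 2R, 45.7% on 3L, 46.4% on 3R and 54.1% on X. Stretches of 200 kb or more numbered 19 on 2L and took up 27.2%, against 19.7% on 2R, 20.2% on 3L, 23.1% on 3R and 25.8% on X. On 2L 5 stretches exceeded 400 kb.

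**Figure D3:**
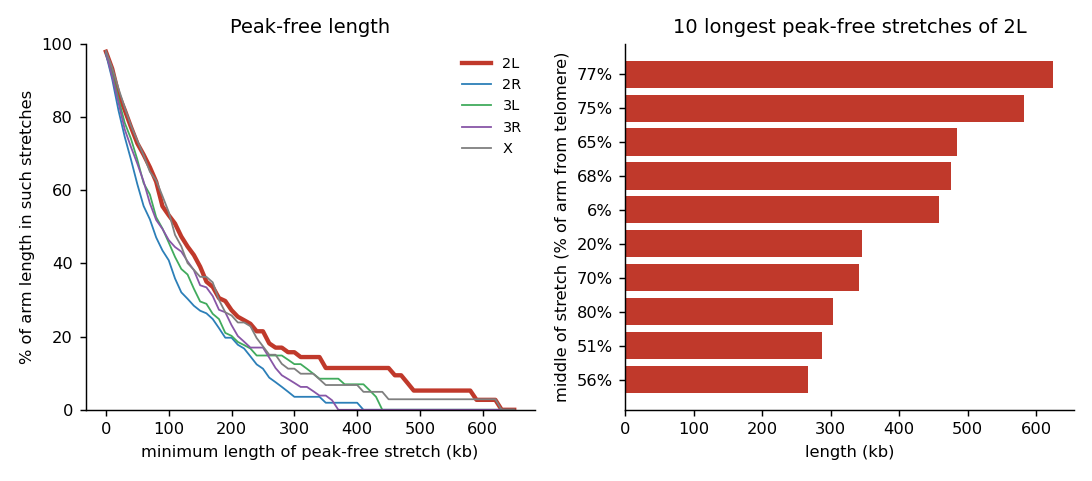
Left, percentage of the length of each large arm that lies in peak-free stretches of at least the length on the horizontal axis (kb), with 2L as the thick line. Right, the 10 longest peak-free stretches of 2L, labelled by the position of their middle; 6 of them lie between 64.5% and 79.7% of the arm from the telomere.

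Long stretches followed one another toward the base of the arm. Between 14573189 and 18455674, a region of 3.88 Mb or 16.9% of the arm, lay 6 of the 10 longest stretches, and they filled 72.4% of it. The bounds of the region are the start of the first and the end of the last of these stretches. The share filled and the density below thus depend in part on how it was drawn. The region held 61 peaks, of which 45 lay in the group at 16.2 Mb to 16.9 Mb, and its density was 15.7 peaks per Mb, against 38.2 on the rest of 2L. Its peaks had a median score of 14.36, close to that of the arm. It held 84.7 protein-coding genes per Mb, against 115.4 on the whole arm.

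The gene table named the genes inside these stretches. Only some of the longest are given, and gene functions in the stretches were not compared with those on the rest of the arm. The longest stretch, 624 kb at chr2L:17481632-18106115, held 39 protein-coding genes, the longest of which were CadN and CadN2, genes for neural cadherins, followed by rdo and Dhc36C. The next, 583 kb at chr2L:16889402-17471906, held 36, the longest being beat-IIIc, CG34106 and beat-IIIa, and beat-IIIc and beat-IIIa belong to the beaten path family of axon guidance genes. The 2 were separated by 2 peaks. The stretch of 484 kb at chr2L:14573189-15056989 held 42 genes, with osp and side-II the longest, and that of 476 kb at chr2L:15272049-15747650 held 34, with stol and kek3 the longest. The only one of the 5 longest outside this region, 458 kb at chr2L:1186557-1644364, held 38 genes with haf, robo2 and robo3 the longest, and robo2 and robo3 encode receptors for the axon guidance protein Slit.

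The next stretches in length were 346 kb at chr2L:4464605-4810200 whose longest gene was dpy, a gene for a giant cuticle-linking protein, and 342 kb at chr2L:15913736-16255320, whose longest genes were beat-Ic and beat-Ia. The rest of the 10 were 303 kb at chr2L:18152283-18455674 with CG42750 and Fas3 the longest, 288 kb at chr2L:11517051-11804823 with kek2 and Vha100-5, and 267 kb at chr2L:12720699-12987251 with kek1 and ACXA. Over all 61 stretches there were 80.6 genes per Mb, against 154.9 per Mb in the rest of 2L, and genes covered 57.4% of their length, against 76.9% of the rest.

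Many peaks of 2L lay near the ends of genes. The centre was within 500 bp of an end of a protein-coding gene for 298 peaks (37.7%, exact 95% interval 34.3% to 41.2%), while 16.4% of the length of the arm was that close to an end. The interval covers counting error only and takes peaks as independent. A further 406 (51.3%) lay inside a gene away from its ends, against 54.9% of the length, and 87 (11.0%) lay between genes, against 28.7% of the length. The ends of 2 or more genes were within 500 bp for 127 peaks. The gene table and the peak list are of different releases, and positions were compared without a shift. When the table was moved in steps of 500 bp up to 20 kb either way, the number of peaks near an end was highest, at 298, for no shift, with a median of 184. A stricter check had been planned for gene starts and was run on either end of each gene. It asked for the highest number at no shift in each stretch of 2 Mb. It was met in 7 of 12 stretches and so failed as a whole, and by the plan gene names were to be used only if it passed. It was not met from 1 to 4000000 and from 12000001 to 18000000, where 101 of 321 peaks (31.5%) were near an end, so gene ends and gene names there are less certain. From 14000001 to 16000000 the count was 4 without a shift and 10 at the best one.

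**Figure D4:**
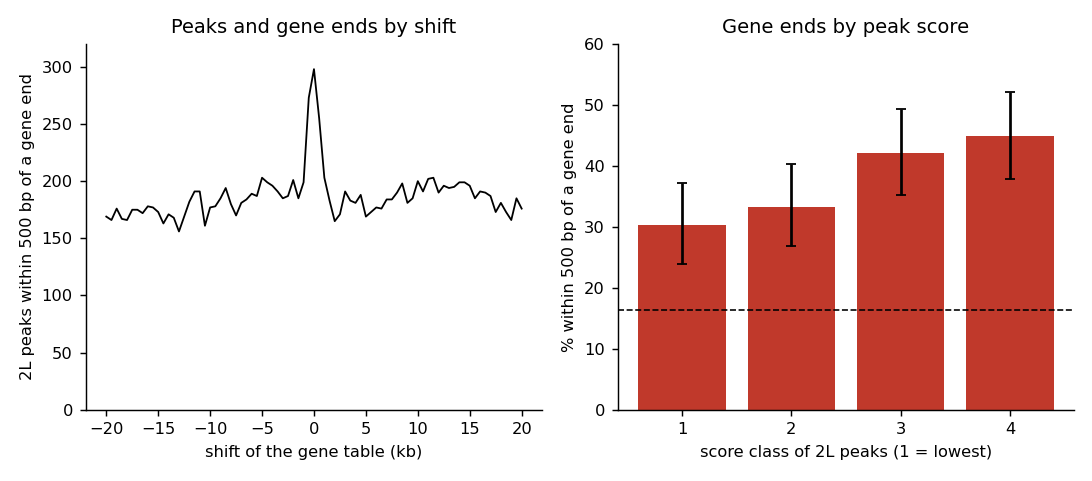
Left, number of 2L peaks within 500 bp of an end of a protein-coding gene when the gene table is shifted by up to 20 kb; the count is 298 without a shift. Right, percentage of peaks near a gene end in 4 equal classes of the 2L peaks by score, with exact 95% intervals; the dashed line is the 16.4% of the arm's length that lies that close to an end.

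The share of peaks at gene ends was larger among higher scores. With the 2L peaks split by score into 4 equal classes, the share within 500 bp was 30.3%, 33.3%, 42.1% and 44.9% from the lowest to the highest. The relation was weak when distance was taken as a continuous value. Spearman's rho between score and distance to the nearest gene end was -0.08 over the 791 peaks. Among the 160 peaks in the top 1000 it was 50.0% (exact 95% interval 42.0% to 58.0%), against 34.5% (30.8% to 38.4%) of the other 631. Crowded peaks were less often at gene ends: the share was 28.4% for those with another peak within 2000 bp, 47.2% for those with none within 20 kb and 47.3% for those in between. In dense windows it was 32.0%, against 40.4% elsewhere. Peaks of 1 kb or more were at gene ends, as judged by their centre, in 34.6% of cases, close to the 38.1% of narrower ones.

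Of 2651 protein-coding genes on 2L, 409 (15.4%) had a peak centre within 500 bp of either end, and 1182 (44.6%) had a peak over the gene or within 5 kb. Neighbouring genes can share a peak, and long genes can collect more of them. Their median length was 1.99 kb. The gene lists below are set beside these shares.

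All 4 nuclear receptor genes of 2L that were listed had a peak over them or within 5 kb, and their median length was 22.4 kb. Hr39, an orphan receptor gene related to ftz-f1, had 7 peaks, with scores of 79.98, 26.02, 8.23, 34.5, 12.77, 9.28 and 58.34 in map order. The first, at chr2L:21236901-21238311, lay at an end of the gene, and 3 of the 7 were among the 1000 highest. Hnf4, which encodes a receptor that controls fat and sugar metabolism in larvae and adults, had 5 peaks, with scores of 15.35, 9.35, 8.23, 10.11 and 23.78. The last of them lay at a gene end. dsf and Hr38 had 1 peak each, with scores of 12.71 and 9.02, outside the gene.

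Of 12 genes of ecdysone, juvenile hormone and sterol biology, 8 (66.7%) had a peak within 5 kb, and 4 (33.3%) had one at an end. vri, which encodes a basic leucine zipper repressor of the circadian clock, had 12 peaks with scores between 7.98 and 158.41, of which 3 were among the 1000 highest. Kr-h1 had 9 peaks with scores between 7.98 and 42.11, and tai, the gene of a coactivator of the ecdysone receptor, had 6 between 9.02 and 25.05. chinmo had 4 peaks between 13.4 and 23.78, Npc2a had 3, crol 2 with scores of 10.88 and 79.36, and Ptth, the gene of the hormone that triggers ecdysone synthesis, 2 with 10.19 and 8.49. Npc1a had 1, with 11.56. Lsp1beta, Fbp2, Sgs1 and jhamt had none. The first 3 of these genes encode a larval serum protein, a fat body protein and a salivary glue protein. The median length of the 12 genes was 5.71 kb, above that of all genes.

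Of 30 genes for developmental transcription factors, 13 (43.3%) had a peak within 5 kb, a share near the 44.6% of all genes. Their median length was 11.8 kb, against 1.99 kb for all genes, and length was not matched. At an end 8 (26.7%) had a peak, against 15.4% of all genes. Strong peaks at an end were found at lilli (147.07), nub (107.82), dac (68.58) and tup (56.69), of which lilli, nub and dac lie where the stricter check was not met. The odd, sob and drm genes of one cluster, slp1 and slp2 of another, and esg, wor and sna of yet another had none. Of 19 ribosomal protein genes 7 (36.8%) had a peak within 5 kb, and 4 (21.1%) had one at an end. The highest-scoring peaks at an end were those at RpL21 (83.07) and RpL27A (82.45). The highest within 5 kb, 98.46, was near RpS21, whose peak at an end scored 9.68. Of 13 cytochrome P450 genes, 4 had a peak within 5 kb, and 3 of these were neighbours in the Cyp4ac cluster that share peaks of 12.16 and 26.63.

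The repeated histone gene cluster, with 111 histone genes in the table, held 5 weak peaks, with scores of 10.02, 15.11, 11.29, 18.7 and 12.8 between 21435015 and 21499878. Its repeats are nearly identical, so the placing of reads among them is uncertain, as are the 44 of 112 histone genes with a peak within 5 kb.

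The gene with the most peaks on 2L was Samuel, also known as moses, which encodes a cofactor that binds the Hr78 protein. It had 21 peaks over it or within 5 kb, between 11011978 and 11067699. Their scores ran from 7.0 to 67.17 with a median of 14.15, and 4 were among the 1000 highest. These 4 lay at chr2L:11044350-11046380 with 55.05, at chr2L:11051828-11053888 with 67.17, at chr2L:11057899-11058776 with 47.65 and at chr2L:11059783-11061987 with 60.06. Samuel is 53.8 kb long in the gene table, and these peaks made up the second of the 2 fullest windows.

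The genes next in number of peaks were also long. brat, a translational repressor gene that restrains growth of neural stem cells, had 14 peaks with scores between 8.75 and 70.34, 1 of them among the 1000 highest. ND-15, a gene for a subunit of respiratory complex I whose entry spans 41.3 kb and encloses other genes, had 13. bun, a homologue of the TSC-22 transcription factor family, also had 13, with scores between 7.56 and 79.98. kis, which encodes a chromatin remodeller, and vri had 12 each. vri was the shortest of these, at 22.3 kb. Its peaks at chr2L:5291803-5293894, chr2L:5294206-5295421 and chr2L:5306164-5307158 scored 158.41, 35.84 and 51.31, and its other 9 peaks scored 28.04 or less. ND-15, bun and kis lie where the stricter check was not met, and some of the ND-15 peaks are also counted for spen.

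**Figure D5:**
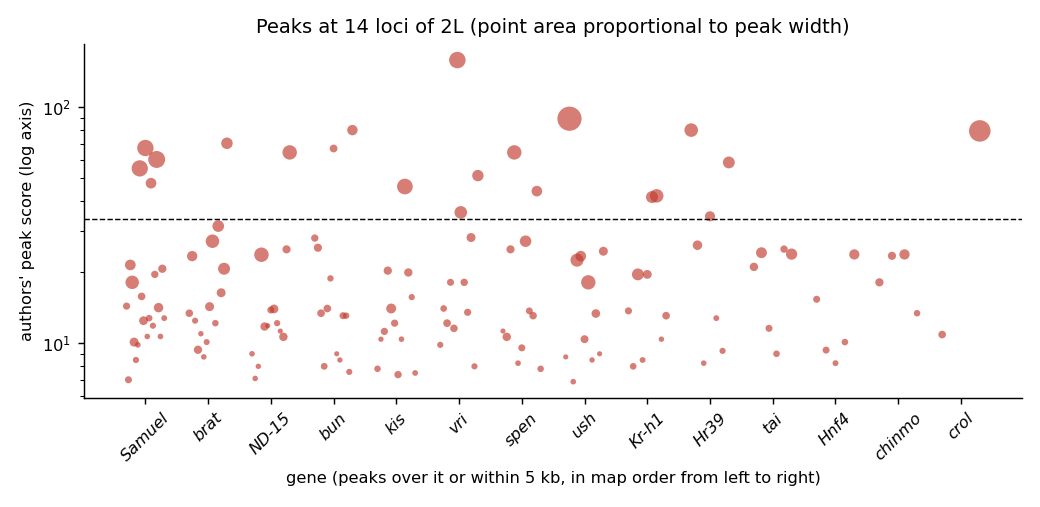
Scores (log axis) of the peaks over or within 5 kb of 14 genes of 2L, in map order within each gene; point area is proportional to peak width and the dashed line marks 33.59, the bound of the 1000 highest. Samuel has 21 points, 4 of them above the line, and the highest point belongs to vri. The genes are a selection. Of the listed nuclear receptor, hormone and sterol genes, dsf, Hr38, Npc2a, Ptth, Npc1a and those without a peak are not shown.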

How the data were processed

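The authors deposited 1 peak list for 3 libraries. Its source column names MACS. Tools named in the submitters' processing notes are CASAVA (1.7.0.2, 1.7.0.3), BWA and MACS2, without their roles. Coordinates are of FlyBase release 5, per the file headers. The deposited score of each peak has no stated definition, and neither the threshold nor any pooling of replicates is given in the sources used here. Deposited start and end positions were used as other values.

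Members and gene lists were chosen with earlier results of these data known. Arm length was the highest peak end. Windows, sections, spacing and peak-free stretches were computed in Python 3.11.15 (numpy 2.4.6, pandas 2.3.3, scipy 1.17.1) and tested on simulated data. Depth is unknown.

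Named peaks were the 10 highest-scoring, the 5 widest, the first and the last, with the 5 fullest windows, the 10 longest stretches, the 3 largest groups, the 5 genes with most peaks (6 with ties) and the listed genes. Gene names come from RefSeq release 6, with no coordinates of it printed. The planned coordinate check, run on either gene end in place of gene starts, passed in 7 of 12 stretches. The use of gene ends was added after seeing the data. Planned promoter and AGGTCA results were not analysed here, since the table has no strand and no sequence.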

Additional observations from a re-analysis of the deposited data

How the results depend on the processing

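Of 36 alternatives for 14 results, 11 stayed close to the value given, 24 moved and 1 turned round. Close meant within 1.5 times the value or, for shares of peaks, within its exact interval. The ratio of peaks in the first to the last section was 0.89 among the 1000 highest scores, with the rest of its settings between 1.25 and 1.61. Sets of fewer peaks hold fewer peaks and wider spacing by construction. The 2425 highest scores of the list gave 388 peaks, 16.9 per Mb, a median width of 691 bp, a median score of 26.7, a spacing of 22500 bp, 1 dense window, 22 groups, 70 peak-free stretches (66.3% of the arm), a score difference between the first and last section of -3.59 (-0.65 with all peaks) and 43.8% of peaks at gene ends. The 1000 highest gave 160 peaks, 6.97 per Mb, a width of 945.5 bp and a spacing of 68228 bp. With peaks within 500 bp merged there were 10 dense windows, a spacing of 11272 bp and 41.96% at gene ends. Dense windows of 15 or more peaks numbered 5. Stretches of 200 kb or more numbered 19 and took up 27.2% of the arm. With 3 sections in place of 5 the score difference was -0.33. The share at gene ends was 53.1% within 1000 bp (26.6% of the length), 27.3% by overlap and 44.6% with genes of every biotype (20.4% of the length). It was 41.9% in stretches that passed the check, which selects for a high share, and 31.5% in the others. The 6 alternatives for gene ends were chosen after seeing the data. Alternatives for promoters and AGGTCA were not run. No paired analysis was possible because 1 list gives no value per library, and for the same reason no replicate could be left out. The unknown depth limits how far weak peaks can be read.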
